A study of Mus musculus with 8 samples.

Results

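The CC chemokine ligands described here are 10 genes, Ccl2, Ccl3, Ccl4, Ccl5, Ccl6, Ccl7, Ccl8, Ccl9, Ccl12 and Ccl24, chosen by gene symbol and found, all 10 of them, in both gene tables of the study. The HFD table held 17740 genes, 23 of them with a CC ligand symbol, and that of ND held 16436 genes, 20 of them with such a symbol. The study sequenced RNA from macrophages of the epididymal white adipose tissue (eWAT) of mice, to set macrophages that adhere to adipocytes (adhesion-related macrophages, ARMs) beside those of the stromal vascular fraction (SMs). Both were sorted as CD45+CD11b+F4/80+ cells after collagenase digestion, ARMs from the adipocyte layer, which was filtered and vortexed until the adipocytes lysed, and SMs from the stromal vascular pellet, so the way of isolation and the cell type cannot be told apart. All animals were wild-type male mice on a C57BL/6 background, which received either a high-fat diet with 60% fat for 8 weeks from 6 weeks of age (HFD) or a normal diet, labelled chow (ND). There were 2 libraries in each of 4 groups (HFD ARM, HFD SM, ND ARM and ND SM), each made from a pool of 6 mice on HFD or 10 mice on ND.

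CC chemokines are small secreted proteins that attract leukocytes along a gradient by binding G protein-coupled receptors of the CC family, and most ligands share their receptors with others. Macrophages are a main source of them, and in fat tissue the recruitment of monocytes through Ccl2 and its receptor Ccr2 is a well-known feature of obesity. Most of these genes respond quickly to inflammatory signals, and tissue digestion is itself known to induce immediate inflammatory transcripts in macrophages.

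The deposited counts summed to 18415520 and 18288775 in HFD ARMs, 19040133 and 18992793 in HFD SMs, 16319038 and 14508824 in ND ARMs and 14861075 and 15833762 in ND SMs. All 10 ligands passed the filter on low counts in both diets. In TPM (a level that accounts for gene length and sums to the same total in each library), the 10 ligands together made up 1.44% and 1.31% of all transcripts in the HFD ARM libraries and 1.24% and 1.16% in the HFD SM libraries. In ND mice the same share was 1.69% and 1.36% in ARMs and 1.49% and 1.24% in SMs. The ARM libraries lay above the SM libraries in HFD mice, whereas the ND libraries of both cell types overlapped. Replicates differed by more than counting noise, with a chi-square between replicates that averaged 4.22 for ARMs and 5.94 for SMs on HFD and 10.1 for ARMs and 8.04 for SMs on ND over the genes. Since each library is a pool of mice, the p-values measure the spread between pools.

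Of the 10 ligands, 9 lie on mouse chromosome 11 in a pair of clusters (build GRCm38, the same assembly as mm10). The first cluster runs in the order Ccl2 (chr11:82035571-82037453), Ccl7, Ccl11, Ccl12 and Ccl8 (chr11:82115185-82116799), all on the plus strand. The second holds Ccl5 (chr11:83525778-83530518), Ccl9, Ccl6 and Ccl3 (chr11:83647844-83649355) on the minus strand and Ccl4 (chr11:83662584-83664683) on the plus strand. The gap between Ccl8 and Ccl5 is 1408978 bases, and Ccl3 and Ccl4 are 13228 bases apart. Ccl24 lies on chromosome 5 (chr5:135569937-135573049, minus strand). Reads of Ccl3 and Ccl4 could not be fully separated in the HFD table, where the estimated counts of both were not whole numbers in any of the 4 libraries and added up to whole numbers in all 4. The RefSeq model of Ccl4 spans 16060 bases and overlaps that of Ccl3 by 755 bases on the opposite strand, so their HFD values are uncertain as single genes and their sum is given as well.

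ARMs were first compared with SMs within each diet, to see which ligands differ between macrophages that adhere to adipocytes and those that do not. Calls needed both a fold above 1.5 and an adjusted p below 0.05, by quasi-likelihood F-tests in edgeR, adjusted by Benjamini-Hochberg over every gene tested. In HFD mice Ccl3, Ccl4, Ccl5 and Ccl12 rose in ARMs, which is 4 of 10 ligands, where 4.46% of all 13337 genes tested were called higher. None of the 10 was called lower (0, against 0.292% of all genes), by edgeR as by DESeq2 and limma. In either direction, 8 of the 10 had an unadjusted p under 0.05 by edgeR, against 3089 of all 13337 genes. In ND mice Ccl3 and Ccl4 rose in ARMs, 2 of 10, against 3.55% of 12441 genes, and 0 were called lower (0.129% of all genes) by any of these 3 tools. On ND, 6 ligands had an unadjusted p under 0.05 by edgeR, against 1858 of the 12441 genes. At an adjusted p under 0.05 without a fold threshold, 4 ligands were higher (6.53% of all genes) and 2 lower (3.02%) in HFD ARMs, and 2 were higher (4.28%) and 1 lower (0.458%) in ND ARMs. The libraries of ARMs and SMs did not overlap for 8 ligands in HFD mice, 6 above and 2 below, and for 6 in ND mice, 5 above and 1 below, compared with 52.7% and 44.0% of all genes. The median log2 fold change over the 10 ligands was 0.28 in HFD mice, beside -0.01 over all genes, and 0.19 in ND mice, beside -0.02. These are bulk libraries, so more cells with a transcript and more of it per cell cannot be told apart.

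**Figure D1:**
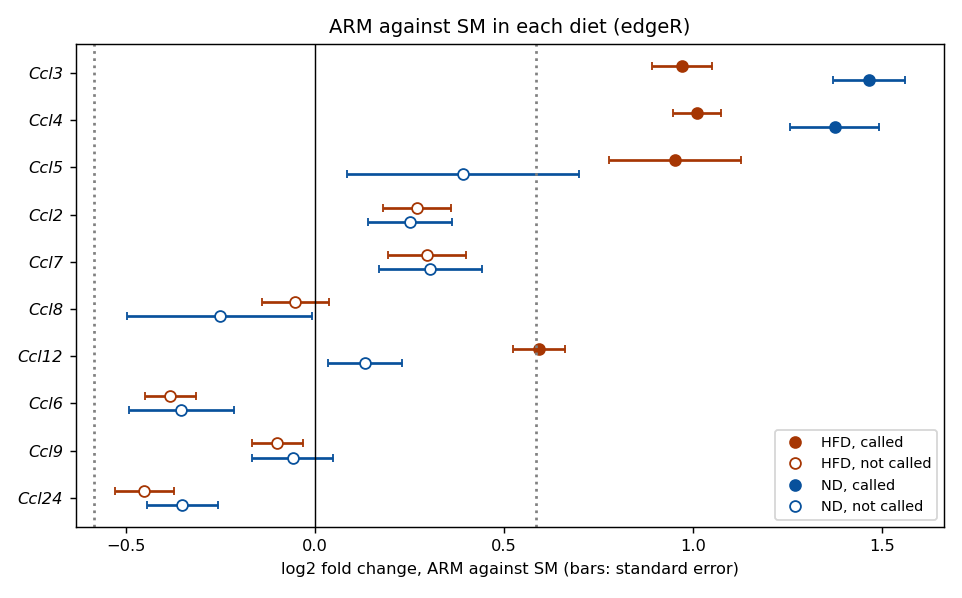
Log2 fold change of each CC ligand in ARMs against SMs (x axis) in HFD and ND mice, from edgeR, with bars for the standard error and filled points for called genes. The dotted lines mark a fold change of 1.5 in either direction, and Ccl3 and Ccl4 lie past it in both diets.

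The ligands Ccl3 and Ccl4 attract monocytes, macrophages and T cells, and Ccl3 binds Ccr1. Ccl3 (Entrez 20302) had 2024 and 1718 TPM in HFD ARMs against 952 and 945 TPM in HFD SMs. In ND mice its level was 1298 and 1297 TPM in ARMs against 444 and 473 TPM in SMs. Every ARM library was above every SM library of its diet, and the gap between cell types was larger than that between replicates. On HFD, ARMs exceeded SMs by a log2 fold change of 0.97 (SE 0.0804, n = 2 libraries against 2, adjusted p = 7.13e-05, edgeR with Benjamini-Hochberg adjustment), and on ND by 1.47 (SE 0.0953, adjusted p = 1.96e-06). With each library left out in turn, it ranged from 0.84 to 1.09 in HFD mice and from 1.43 to 1.498 in ND mice.

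Ccl4 (Entrez 20303) was close to Ccl3 in size and pattern. Its level was 2476 and 2315 TPM in HFD ARMs and 1166 and 1214 TPM in HFD SMs. On ND it was 1255 and 1008 TPM in ARMs and 447 and 396 TPM in SMs. Again both ARM libraries of each diet stood above both SM libraries. Ccl4 rose by a log2 fold change of 1.01 in HFD ARMs (SE 0.0639, adjusted p = 1.81e-05, edgeR with Benjamini-Hochberg adjustment) and of 1.38 in ND ARMs (SE 0.118, adjusted p = 2.15e-05). Leaving out single libraries gave 0.96 to 1.07 in HFD mice and 1.21 to 1.52 in ND mice. Counted as one feature, a step added after the counts were seen, Ccl3 and Ccl4 had 27114 and 24261 counts in HFD ARMs and 13112 and 13151 in HFD SMs. The summed log2 fold change was 0.99 (SE 0.0694) in HFD mice and 1.44 (SE 0.0994) in ND mice. The sum does not settle the HFD share of each gene. A fit of limma on log2(FPKM + 1) without a filter called neither gene in ND mice, with adjusted p = 0.126 for Ccl3 and 0.2 for Ccl4 after Benjamini-Hochberg adjustment, nor Ccl3 in HFD mice (0.0704). Its log2 fold changes were about as large, at 1.47 for Ccl3 and 1.38 for Ccl4 on ND and 0.99 for Ccl3 on HFD. Over all genes it called 0 in ND mice.

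Of the 10 ligands, 5 had an entry in the RefSeq promoter table (GRCm38.p6, 250 bases before to 50 bases after the start site), namely Ccl3, Ccl6, Ccl8, Ccl9 and Ccl12. That of Ccl3 is shown because the gene was called in both diets (chr11:83649329-83649628, minus strand, 5′ to 3′), with capitals for any match to the motifs searched on both strands.
Ccl3: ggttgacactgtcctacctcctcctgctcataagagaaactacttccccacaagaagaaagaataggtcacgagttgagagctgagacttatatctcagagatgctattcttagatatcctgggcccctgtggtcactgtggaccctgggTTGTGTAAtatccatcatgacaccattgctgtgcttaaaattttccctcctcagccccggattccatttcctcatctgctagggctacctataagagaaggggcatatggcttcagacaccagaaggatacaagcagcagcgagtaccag
The motifs were the TATA box TATAAA, found in 13.6% of 32851 promoters of this length, AP-1 TGANTCA (7.81%), C/EBP TTNNGNAA (40.7%), ETS GGAAGTG (11%), STAT TTCNNNGAA (8.30%) and NF-kB by name (8.46%). The window of Ccl3 held 1 match, to C/EBP, at -100 from the start site, and the match says only that these letters are there. In the other windows, Ccl9 matched TATA box, AP-1, C/EBP, ETS and NF-kB letters, some of them overlapping, and Ccl6 matched ETS only.

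Ccl5, which attracts T cells and monocytes through receptors that include Ccr1 and Ccr3, was the least abundant of the 10 in every group. Ccl5 (Entrez 20304) had 44.1 and 50.4 TPM in HFD ARMs and 19.7 and 28.8 TPM in HFD SMs, from 191 and 219 against 88 and 127 counts. In ND mice its level was 14.9 and 14.9 TPM in ARMs and 12.1 and 9.89 TPM in SMs, from 29 to 44 counts. The ARM libraries were the higher ones in both diets, by a wide margin in HFD mice and by a small one in ND mice. The log2 fold change of Ccl5 was 0.95 in HFD mice (SE 0.176, adjusted p = 0.00776, edgeR with Benjamini-Hochberg adjustment) and 0.39 in ND mice (SE 0.306, adjusted p = 0.647). The HFD call was lost without HFD ARM replicate 1 (log2 fold change 1.04, adjusted p = 0.0637 by edgeR with Benjamini-Hochberg adjustment), without HFD ARM replicate 2 (0.86, adjusted p = 0.136) and without the filter on low counts (0.95, adjusted p = 0.104). It was also lost with limma on log2(FPKM + 1) without a filter (0.94, adjusted p = 0.137 after Benjamini-Hochberg adjustment).

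**Figure D2:**
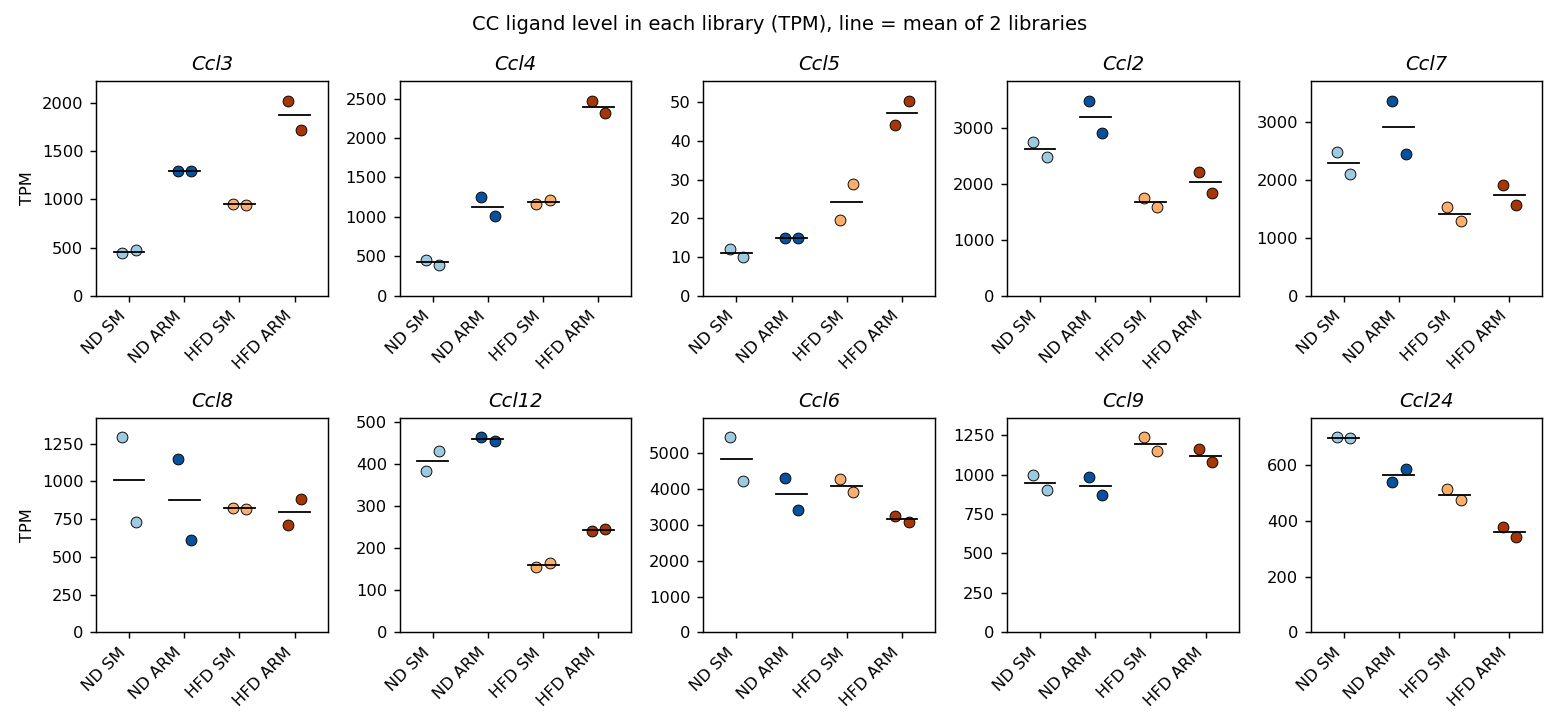
Level of each CC ligand in TPM (y axis, from 0) in the 2 libraries of ND SMs, ND ARMs, HFD SMs and HFD ARMs, with a line at the mean of each group. The ARM points of Ccl3 and Ccl4 lie above the SM points of the same diet, whereas those of Ccl24 lie below.

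Among the ligands of Ccr2, the receptor by which monocytes leave the bone marrow and enter tissue, Ccl2 and Ccl7 showed small differences and Ccl12 a larger one in HFD mice. Ccl2 (Entrez 20296), the main monocyte chemoattractant, had 2207 and 1837 TPM in HFD ARMs and 1743 and 1589 TPM in HFD SMs. On ND it was 3484 and 2912 TPM in ARMs and 2753 and 2480 TPM in SMs. The ARM libraries were above the SM libraries in both diets, but the lower ARM library lay near the higher SM library. Its log2 fold change of 0.27 in HFD mice (SE 0.0896, adjusted p = 0.0918, edgeR with Benjamini-Hochberg adjustment) and of 0.25 in ND mice (SE 0.112, adjusted p = 0.293) did not pass.

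Ccl7 (Entrez 20306), which binds Ccr2 and also Ccr1 and Ccr3, had 1914 and 1571 TPM in HFD ARMs and 1526 and 1294 TPM in HFD SMs. Its ND levels were 3374 and 2453 TPM in ARMs and 2484 and 2109 TPM in SMs. The groups were apart in HFD mice and overlapped in ND mice, where the lower ARM library fell between the SM libraries. On HFD, ARMs over SMs gave a log2 fold change of 0.30 (SE 0.103, adjusted p = 0.11, edgeR with Benjamini-Hochberg adjustment), and on ND one of 0.31 (SE 0.136, adjusted p = 0.299), not past the threshold in either. Replicate 1 was the higher one for Ccl2 and Ccl7 in each of the 4 groups, with ratios of replicate 1 to replicate 2 from 1.1 to 1.38.

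Ccl12 (Entrez 20293), a Ccr2 ligand found in rodents, had 241 and 246 TPM in HFD ARMs and 156 and 164 TPM in HFD SMs. On ND it was 463 and 455 TPM in ARMs and 383 and 431 TPM in SMs. Replicates were close in ARMs of both diets, and the ARM libraries were above the SM libraries in both diets, far in HFD mice and narrowly in ND mice. Ccl12 rose by a log2 fold change of 0.59 in HFD ARMs (SE 0.0679, adjusted p = 0.000514, edgeR with Benjamini-Hochberg adjustment), a fold of 1.51 that was just past the threshold. It was not called without HFD SM replicate 1, where the log2 fold change was 0.57, or at the log2 threshold of 0.6 in the study's methods. In ND mice the value was 0.13 (SE 0.0984, adjusted p = 0.622, edgeR with Benjamini-Hochberg adjustment).

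Ccl8 (Entrez 20307), which in mice acts mainly through Ccr8 and lies next to Ccl12, had 714 and 882 TPM in HFD ARMs and 824 and 819 TPM in HFD SMs. The ND levels were 1145 and 609 TPM in ARMs and 1292 and 729 TPM in SMs. The groups overlapped in both diets, and in ND mice the replicates differed more than the cell types did, by a ratio of 1.88 in ARMs and 1.77 in SMs with replicate 1 the higher in both. For Ccl8 the log2 fold change was -0.05 in HFD mice (SE 0.0888, adjusted p = 0.793, edgeR with Benjamini-Hochberg adjustment) and -0.25 in ND mice (SE 0.245, adjusted p = 0.733). Its sign turned to 0.09 without HFD ARM replicate 1, to 0.13 without ND ARM replicate 2 and to 0.24 without ND SM replicate 1.

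The promoters of Ccl12 (chr11:82101595-82101894, plus strand) and Ccl8 (chr11:82114935-82115234, plus strand), from RefSeq as above, are shown because these neighbours, 11784 bases apart, behaved differently in HFD mice. Capitals mark the motif matches, which were TATAAA in both and, nearer the 5′ end of Ccl12, the ETS letters on the opposite strand.
Ccl12: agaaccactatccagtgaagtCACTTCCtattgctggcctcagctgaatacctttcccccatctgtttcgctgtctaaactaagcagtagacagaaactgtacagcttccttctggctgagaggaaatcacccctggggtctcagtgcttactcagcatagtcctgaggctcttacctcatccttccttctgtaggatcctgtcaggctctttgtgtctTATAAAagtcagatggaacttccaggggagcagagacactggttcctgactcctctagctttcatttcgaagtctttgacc
Ccl8: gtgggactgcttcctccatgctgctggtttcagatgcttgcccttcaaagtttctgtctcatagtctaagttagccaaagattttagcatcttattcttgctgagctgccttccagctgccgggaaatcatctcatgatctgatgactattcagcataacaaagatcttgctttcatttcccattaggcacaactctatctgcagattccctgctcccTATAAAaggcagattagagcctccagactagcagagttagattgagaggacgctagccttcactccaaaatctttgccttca
TATAAA began at -31 from the start site of Ccl12 and at -32 from that of Ccl8, and the ETS match of Ccl12 began at -229. Neither window held the letters searched for AP-1, C/EBP, STAT or NF-kB, which says nothing about these factors.

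Ccl6 and Ccl9, a pair of Ccr1 ligands found in rodents, were abundant and not higher in ARMs. Ccl6 (Entrez 20305), the most abundant of the 10 in every group, had 3228 and 3087 TPM in HFD ARMs and 4261 and 3915 TPM in HFD SMs. In ND mice it was 4312 and 3415 TPM in ARMs and 5434 and 4211 TPM in SMs. The ARM libraries were below the SM libraries on HFD, and on ND the higher ARM library lay above the lower SM library. On HFD, Ccl6 had a log2 fold change of -0.38 (SE 0.0665, adjusted p = 0.00564, edgeR with Benjamini-Hochberg adjustment), and on ND one of -0.35 (SE 0.138, adjusted p = 0.212). The HFD value passed on its adjusted p but not on its fold, and its adjusted p by edgeR with Benjamini-Hochberg adjustment was 0.0577 without HFD ARM replicate 1 and 0.13 without HFD ARM replicate 2.

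Ccl9 (Entrez 20308) had 1161 and 1080 TPM in HFD ARMs and 1236 and 1148 TPM in HFD SMs. In ND mice its level was 987 and 872 TPM in ARMs and 995 and 903 TPM in SMs. ARMs and SMs overlapped in both diets. Between cell types the log2 fold change of Ccl9 was -0.10 in HFD mice (SE 0.0678, adjusted p = 0.434, edgeR with Benjamini-Hochberg adjustment) and -0.06 in ND mice (SE 0.107, adjusted p = 0.874), and the ND value turned to 0.03 without ND ARM replicate 2 or ND SM replicate 1. The HFD counts of Ccl9 were not whole numbers in any of the 4 libraries, with no single gene found that completed them, so some of its reads were shared with other genes.

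Ccl24 (Entrez 56221), an eotaxin that attracts eosinophils through Ccr3 and is often used as a marker of alternative activation in macrophages, ran opposite to Ccl3 and Ccl4. It had 376 and 340 TPM in HFD ARMs and 513 and 472 TPM in HFD SMs. In ND mice its level was 540 and 586 TPM in ARMs and 699 and 696 TPM in SMs. The ARM libraries lay below the SM libraries in both diets. The log2 fold change was -0.45 in HFD mice (SE 0.0771, adjusted p = 0.0052, edgeR with Benjamini-Hochberg adjustment) and -0.35 in ND mice (SE 0.0944, adjusted p = 0.047), each past the adjusted p but short of a fold of 1.5. By the same test the adjusted p was 0.136 without HFD ARM replicate 2, and 0.15 to 0.263 with each ND library left out (edgeR, Benjamini-Hochberg).

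The order of the levels differed between ARMs and SMs. In HFD ARMs, Ccl6 led with a mean of 3158 ± 99.6 TPM (SD, n = 2), followed by Ccl4 at 2395 ± 114 TPM, Ccl2 at 2022 ± 261 TPM, Ccl3 at 1871 ± 216 TPM and Ccl7 at 1742 ± 242 TPM. Ccl2, Ccl3 and Ccl7 overlapped with their neighbours in that order, and Ccl6 and Ccl4 did not. Below them came Ccl9, Ccl8, Ccl24, Ccl12 and Ccl5, each apart from the next. In HFD SMs, Ccl4 and Ccl3 came lower, at 1190 ± 34.1 and 948 ± 5.03 TPM, behind Ccl6, Ccl2, Ccl7 and Ccl9, and the levels of Ccl9 and Ccl4 overlapped. In ND ARMs, Ccl6 (3864 ± 635 TPM), Ccl2 (3198 ± 404 TPM) and Ccl7 (2914 ± 652 TPM) overlapped one with the next, followed by Ccl3 at 1298 ± 0.29 and Ccl4 at 1131 ± 175 TPM. Ccl9 and Ccl8 came next and overlapped, and Ccl24, Ccl12 and Ccl5 closed the order, each apart. In ND SMs, Ccl6 (4822 ± 865 TPM) stood apart, Ccl2 and Ccl7 overlapped, as did Ccl8 and Ccl9, and Ccl3, Ccl4 and Ccl12 lay together at 458 ± 20.7, 422 ± 36.5 and 407 ± 33.5 TPM, below Ccl24. Among all genes of the tables, Ccl6 ranked 30 in ARMs and 24 in SMs on HFD by mean TPM, and 23 and 19 on ND.

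As shares of the summed TPM of the 10 ligands, Ccl6 made up 22.4% and 23.5% in HFD ARMs against 34.4% and 33.8% in HFD SMs, and 25.6% and 25.1% in ND ARMs against 36.4% and 33.9% in ND SMs. The share of Ccl4 was 17.2% and 17.6% in HFD ARMs and 9.4% and 10.5% in HFD SMs, and that of Ccl3 14.1% and 13.1% against 7.68% and 8.15%. In ND mice, Ccl3 took 7.69% and 9.52% in ARMs and 2.97% and 3.8% in SMs, and Ccl4 7.44% and 7.4% in ARMs and 3% and 3.18% in SMs. The make-up thus moved from Ccl6 towards Ccl3 and Ccl4 in ARMs of both diets, with no overlap of ARM and SM libraries for these 3 shares. Shares add up to a fixed total, so one cannot grow without others shrinking.

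**Figure D3:**
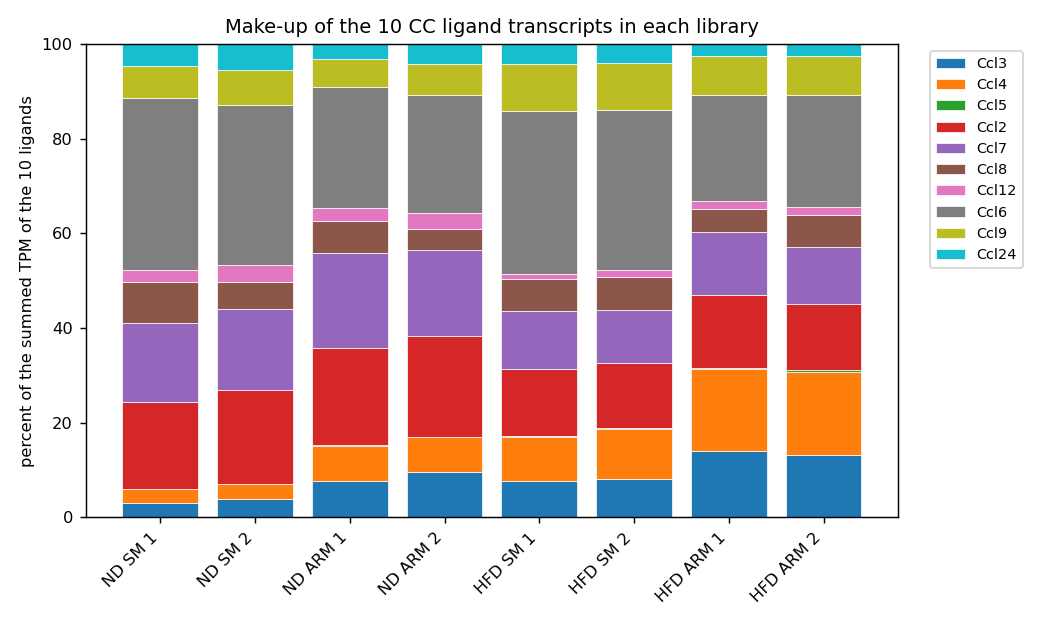
Percent of the summed TPM of the 10 CC ligands (y axis, from 0 to 100) taken by each ligand in each of the 8 libraries. The Ccl6 band is wider in the SM bars, from 33.8% to 36.4%, than in the ARM bars, from 22.4% to 25.6%.

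Whether the difference of ARMs from SMs itself differed between the diets was tested as an interaction in one edgeR fit of all 8 libraries over 13358 genes in both tables. None of the 10 ligands passed (0, beside 0.165% or 22 of all genes), with 3 at an unadjusted p under 0.05, beside 1017 of the 13358 genes. The median difference, HFD less ND, was -0.04 on the log2 scale beside -0.03 over all genes. DESeq2 called 1 ligand, and so did edgeR with the replicate number as a block, which was Ccl3 in both. The difference for Ccl3 was -0.51 (SE 0.123, adjusted p = 0.148 by edgeR with Benjamini-Hochberg adjustment), and DESeq2 gave -0.49 with an adjusted p of 0.0185 after the same adjustment. Ccl12 had a difference of 0.44 (SE 0.114, adjusted p = 0.191) and Ccl4 one of -0.38 (SE 0.149, adjusted p = 0.515), both by edgeR with Benjamini-Hochberg adjustment. Ccl5 and Ccl12 were called in HFD mice and not in ND mice, but this test called neither as different between diets. The adjusted p was 0.803 for Ccl5 (edgeR, Benjamini-Hochberg, difference 0.54, SE 0.331), and the unadjusted p of Ccl12 was 0.00176 (edgeR). With 2 libraries in each group, a missed threshold does not show that the diets are alike.

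The diets were set side by side as values with no test, because each diet has a table of its own and the diet and the making of the table cannot be told apart. The gene length implied by counts and FPKM was longer in the HFD table by a median ratio of 1.06 over 11004 genes, and by 1.06 for Ccl9 up to 1.34 for Ccl8 among the ligands, so short genes shift between scales. On all 3 scales tried (FPKM, TPM and TMM-scaled counts, that is counts relative to library size), both HFD libraries were above both ND libraries for Ccl3, Ccl4, Ccl5 and Ccl9, in ARMs and in SMs. The log2 ratio of HFD to ND in TPM was 0.53 in ARMs and 1.05 in SMs for Ccl3, and 1.08 and 1.4965 for Ccl4. For Ccl5 it was 1.67 in ARMs and 1.14 in SMs, and for Ccl9 0.27 and 0.33. The HFD libraries were below the ND libraries on the same 3 scales for Ccl2, Ccl7, Ccl12 and Ccl24 in both cell types. Their log2 ratios in TPM in ARMs and SMs were -0.66 and -0.65 for Ccl2, -0.74 and -0.70 for Ccl7, -0.92 and -1.34 for Ccl12, and -0.65 and -0.50 for Ccl24. In TMM-scaled counts they were smaller in size, at -0.43 and -0.43 for Ccl2, -0.51 and -0.48 for Ccl7, -0.54 and -0.98 for Ccl12 and -0.48 and -0.37 for Ccl24. Those of Ccl3 (0.77 and 1.28), Ccl4 (1.40 and 1.78) and Ccl5 (2.05 and 1.51) were larger, and 18 of 40 ratios on another scale moved by more than the spread between replicates. Ccl6 lay below in FPKM in both cell types and overlapped in TMM-scaled counts, and its log2 ratio in TPM was -0.29 in ARMs and -0.24 in SMs. Ccl8 overlapped on every scale and changed sign, with a log2 ratio in ARMs of -0.14 in TPM and 0.26 in TMM-scaled counts and in SMs of -0.30 and 0.08.

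**Figure D4:**
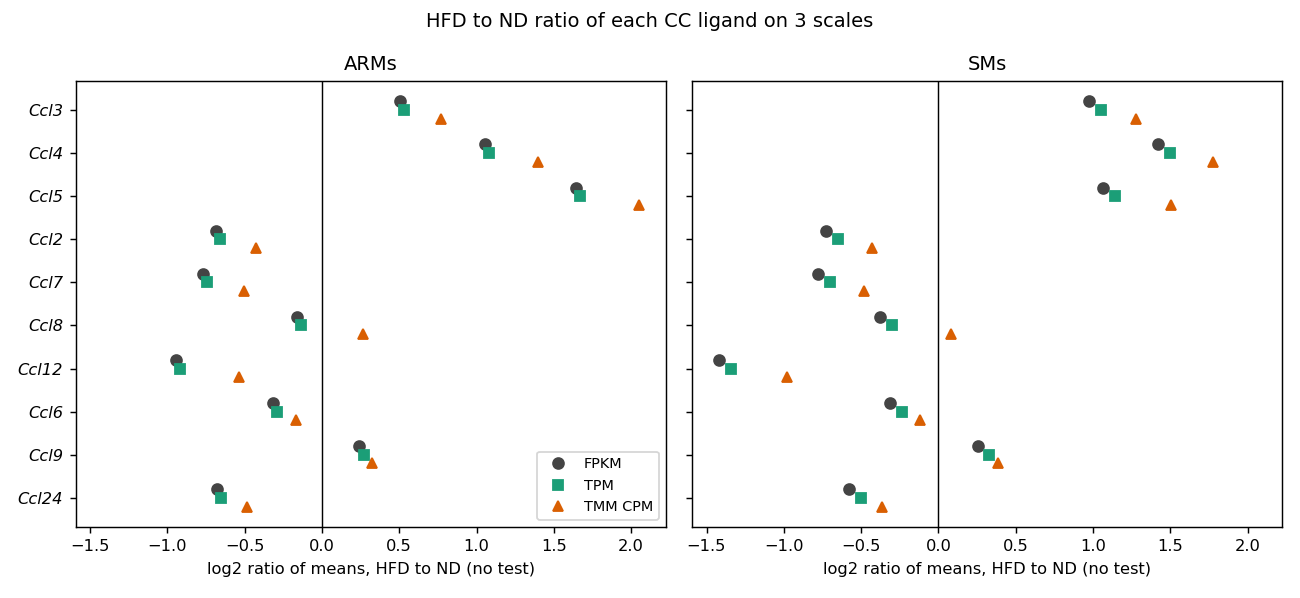
Log2 ratio of the mean HFD level to the mean ND level (x axis) of each CC ligand in ARMs and in SMs, on 3 scales (FPKM, TPM and TMM-scaled CPM), with no test. Ccl3, Ccl4, Ccl5 and Ccl9 lie to the right of 0 on each scale, and Ccl8 is on both sides of it.

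Across the 8 libraries, after the mean of each diet was taken out of log2(TPM + 1), some ligands varied closely together. These correlations are a description over 8 libraries that share cell type and may share a pool, and part of each is the difference of ARMs from SMs. Ccl3 and Ccl4 had a Pearson correlation of 0.983, Ccl2 and Ccl7 one of 0.979, Ccl5 and Ccl12 one of 0.894, Ccl2 and Ccl4 one of 0.854, and Ccl6 and Ccl9 one of 0.832. Ccl2 also varied with Ccl3 (0.81), so these pairs are not separate groups. Ccl24 ran against Ccl5 (-0.939), Ccl12 (-0.921), Ccl4 (-0.904) and Ccl3 (-0.864). Ccl8 was nearest to Ccl9 (0.683) and Ccl6 (0.68), and its correlation with its neighbour Ccl12 was -0.206.

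Among 7852 genes with a mean of at least 10 TPM, those nearest to Ccl3 by the same correlation over 8 libraries were Procr (0.991), Efhd2 (0.99) and Cxcl2 (0.987), the last a neutrophil chemoattractant. Nearest to Ccl4 were Procr (0.99), Mapkapk3 (0.987) and Cxcl1 (0.987), another neutrophil chemoattractant. Ccl2 had Ccl7 (0.979), Zfp653 (0.957) and Spryd7 (0.948), and Ccl7 had Ccl2, Atp6v1e1 (0.963) and Spryd7 (0.944). Thus the closest gene to either of Ccl2 and Ccl7 in these libraries was the other. Procr led for both Ccl3 and Ccl4, whose HFD reads were not fully separated. For Ccl5 they were Tmem11 (0.994), Atxn10 (0.975) and Slamf9 (0.969), and for Ccl12 Slc35b2 (0.985), Fcgr4 (0.976) and Cd180 (0.969). Ccl6 was nearest to Snx2 (0.99), Map1lc3b (0.984) and Bin1 (0.983), and Ccl9 to Atp1b3 (0.983), Tfpi (0.978) and Trappc3 (0.977). Ccl8 had Mtch2 (0.991), Adpgk (0.986) and Cox8a (0.986). Ccl24 was near Grap (0.986) and Clec10a (0.984), a lectin of alternatively activated macrophages.

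The other CC ligands bind receptors such as Ccr3, Ccr4 and Ccr7. Of 14 listed, 8 were tested on HFD, where their median log2 fold change was 0.21, and 6 on ND, where it was -0.13, and their summed TPM was 62.9 and 84.9 in HFD ARMs, 62.8 and 82.2 in HFD SMs, 52 and 107 in ND ARMs and 34.3 and 48.2 in ND SMs. By the mean over the 8 libraries the most abundant was Ccl11, although over the 4 HFD libraries it was Ccl22, with 13.9 and 24.6 TPM in ARMs and 27.2 and 38.4 TPM in SMs. Ccl11 is an eotaxin that attracts eosinophils and is made mostly by stromal cells, and had 23.2 and 29.8 TPM in HFD ARMs against 15 and 11.4 TPM in HFD SMs. In ND mice it had 31.6 and 61.1 TPM in ARMs against 10.6 and 16.4 TPM in SMs. Ccl11 rose by a log2 fold change of 0.995 in HFD ARMs (SE 0.169, adjusted p = 0.005, edgeR with Benjamini-Hochberg adjustment), a call lost without HFD ARM replicate 2 (0.81), without the filter on low counts, in one fit of all 8 libraries and with limma without a filter, and of 1.73 in ND ARMs (SE 0.266, adjusted p = 0.00106). Without single libraries these values ranged from 0.80 to 1.22 and from 1.18 to 2.14. Its ARM libraries were above its SM libraries in both diets, as those of Ccl3 and Ccl4 were.

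Ccl21a, a ligand of Ccr7 made by lymphatic vessels, had 41.6 and 42.2 counts in ND ARMs and 0 and 5.48 in ND SMs, and was called with a fitted log2 fold change of 4.01 (SE 0.611, adjusted p = 0.00101, edgeR with Benjamini-Hochberg adjustment). That value ran from 3.08 to 8.39 with single libraries left out, and the copies of Ccl21 share their reads, so it is uncertain. In HFD mice Ccl21a had 56.6 and 79.3 counts in the ARM and 13.3 and 55.9 in the SM libraries, not called (log2 fold change 0.998, adjusted p = 0.226, edgeR with Benjamini-Hochberg adjustment), and its copy Ccl21c, called there by the same fit, had 11 and 11.7 counts in ARMs and 0 and 0 in SMs. The call of Ccl21c was lost with DESeq2 and without the filter on low counts. Ccl22, a dendritic cell and macrophage product that binds Ccr4, had on HFD a log2 fold change of -0.78 (SE 0.218, adjusted p = 0.0512, edgeR with Benjamini-Hochberg adjustment) and -0.07 in ND mice. Ccl17, the other Ccr4 ligand, was at -0.47 and -0.42. Ccl25 (-0.02 and -0.19), Ccl27a (-0.04 and -0.57) and, in HFD mice, Ccl28 (0.45) also did not pass. Ccl1, Ccl19, Ccl20, Ccl21b, Ccl26 and Ccl27b were not tested in either diet, nor Ccl21c and Ccl28 in ND mice.

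Of the 11 CC receptors listed, 6 were tested in each diet and 0 were called by edgeR, DESeq2 or limma, with 2 at an unadjusted p under 0.05 in HFD mice and 1 in ND mice and a median log2 fold change of -0.10 and 0.19. Ccr1, the receptor of Ccl3, Ccl5, Ccl6 and Ccl9, was the most abundant, with 120 and 114 TPM in HFD ARMs against 152 and 138 TPM in HFD SMs. In ND mice it had 354 and 293 TPM in ARMs against 248 and 246 TPM in SMs. Its ARM libraries were thus below the SM libraries in HFD mice and above them in ND mice. The log2 fold change of Ccr1 was -0.32 in HFD mice (SE 0.0724, adjusted p = 0.0213, edgeR with Benjamini-Hochberg adjustment) and 0.36 in ND mice (SE 0.106, adjusted p = 0.0693). Their difference of -0.70 did not pass with edgeR (adjusted p = 0.0755, Benjamini-Hochberg) and did with DESeq2 (-0.68, adjusted p = 0.000874). It also passed in edgeR with the replicate number as a block (-0.69, adjusted p = 0.00324, Benjamini-Hochberg).

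Ccr2, the receptor of Ccl2, Ccl7 and Ccl12, had 54.3 and 64.8 TPM in HFD ARMs and 53.9 and 58.7 TPM in HFD SMs, which overlapped, with a log2 fold change of 0.07, and -0.14 on ND. Ccr3, the receptor of Ccl24 and Ccl11, had 1.02 to 1.97 TPM in HFD libraries and log2 fold changes of 0.48 and 0.30, and Ccr1l1, a relative of Ccr1, had -0.12 and 0.75. Ccr2 and Ccr7 are in a marker list as well, of monocytes and dendritic cells, and Dpp4 is both in the list of chemokine cleavage and in that of dendritic cells. Ccr7, a receptor of migrating dendritic cells, was at -0.99 in HFD mice (SE 0.281, adjusted p = 0.0527, edgeR with Benjamini-Hochberg adjustment) and -0.47 in ND mice.

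The atypical receptors bind chemokines or related ligands without the usual signal. Ccrl2, which presents the attractant chemerin, had 292 and 336 TPM in HFD ARMs against 215 and 233 TPM in HFD SMs. In ND mice it had 246 and 300 TPM in ARMs against 145 and 164 TPM in SMs. Both ARM libraries were the higher ones in each diet. The log2 fold change of Ccrl2 was 0.48 in HFD mice, short of the fold threshold (SE 0.075, adjusted p = 0.003, edgeR with Benjamini-Hochberg adjustment), and 0.79 in ND mice, where it was called (SE 0.11, adjusted p = 0.000537). Ackr3, a scavenger of Cxcl12 that stromal and endothelial cells carry, had 9.75 and 13.9 TPM in ND ARMs against 3.32 and 3.57 TPM in ND SMs and was called there (log2 fold change 1.74, SE 0.227, adjusted p = 0.000326, edgeR with Benjamini-Hochberg adjustment). In HFD mice it was at 0.34 (adjusted p = 0.138), and the difference between diets of -1.41 did not pass with edgeR (adjusted p = 0.0618, Benjamini-Hochberg) but did with DESeq2 (-1.40, adjusted p = 0.0185). That difference also passed in edgeR without the filter on low counts (-1.38, adjusted p = 0.0308, Benjamini-Hochberg). With the replicate number as a block it passed as well (-1.41, adjusted p = 0.0023, edgeR, Benjamini-Hochberg). Of the 5 atypical receptors listed, 4 were tested in HFD mice, where 0 were called by edgeR, DESeq2 or limma (2 with an unadjusted p under 0.05, median log2 fold change 0.39), and 2 in ND mice, where both were called (median 1.26). Ackr1, which takes up chemokines on vessels and red blood cells, was at 0.45 and Ackr4 at -0.30 in HFD mice.

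Most ligand genes are switched on by NF-kB or interferon factors, and their mRNA is destroyed by decay factors such as Zfp36. Of 13 NF-kB and interferon factors, 0 were called in either diet by edgeR, DESeq2 or limma, with 1 gene on HFD and 6 on ND at an unadjusted p under 0.05. The median log2 fold change was 0.03 and 0.11. Irf1, the most abundant by mean over the 8 libraries although Stat3 led on HFD, had 477 and 478 TPM in ND ARMs against 577 and 622 TPM in ND SMs. In ND mice Stat3 (0.42), Rela (0.38) and Irf1 (-0.36) missed only the fold. Their adjusted p was 0.0253, 0.0479 and 0.042 (edgeR, Benjamini-Hochberg). Of 10 NF-kB inhibitors and mRNA decay factors, again 0 were called by these tools, with 7 and 4 at an unadjusted p under 0.05 and medians of 0.14 and 0.18. Nfkbib (0.49), Zc3h12a (0.45) and Tnfaip3 (0.42) missed only the fold in ND mice, with adjusted p of 0.00863, 0.0164 and 0.0268 (edgeR, Benjamini-Hochberg). So did Nfkbia (0.21, adjusted p = 0.0487) and, lower in ARMs, Nfkbiz (-0.23, adjusted p = 0.0325) in HFD mice, by the same test. Zfp36 led with 8125 and 7901 TPM in HFD ARMs, 7957 and 7635 TPM in HFD SMs, 5709 and 5801 TPM in ND ARMs and 4648 and 5223 TPM in ND SMs, above every ligand in HFD mice. The log2 fold change of Zfp36 was 0.03 in HFD mice and 0.19 in ND mice, and its part in the ligand levels was not tested.

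Some enzymes cleave chemokines, and proteoglycans hold them on the matrix. Of 12, 6 rose in HFD ARMs and 5 in ND ARMs, with 0 called lower in either diet by edgeR, 8 at an unadjusted p under 0.05 in each, and medians of 0.53 and 0.55. The 4 with the largest log2 fold change in HFD mice were Mmp12 (1.23), a macrophage elastase that trims CC ligands, Sdc1 (1.05), Gpc1 (0.96) and Mmp14 (0.86). Mmp12 had 83.4 and 127 TPM in HFD ARMs and 46.7 and 42.5 TPM in HFD SMs. In ND mice they were Mmp2 (1.34), a gelatinase known to cut Ccl7, Sdc2 (1.17), Mmp14 (1.02) and Sdc1 (0.77). DESeq2 called 4 genes of this list in HFD mice and 3 in ND mice, not Gpc1 in the former nor Sdc1 and Sdc2 in the latter. In HFD mice the calls of Gpc1 (0.70), Mmp14 (0.72) and Sdc1 (0.71) were lost without HFD ARM replicate 2, and that of Gpc1 also without HFD ARM replicate 1 (1.18) or HFD SM replicate 1 (0.82). In ND mice those of Mmp14 (0.67), Sdc1 (0.40) and Sdc2 (0.97) were lost without ND ARM replicate 2, those of Sdc1 (0.59) and Sdc2 (1.11) without ND SM replicate 1, and that of Sdc2 without ND SM replicate 2 (1.23). Sdc4, a heparan sulfate proteoglycan and the most abundant of the list, had 767 and 790 TPM in HFD ARMs and 600.03 and 586 TPM in HFD SMs.

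The sort was for macrophages, and the 10 macrophage markers summed to 22846 and 21531 TPM in HFD ARMs, 23629 and 23684 TPM in HFD SMs, 22220 and 23002 TPM in ND ARMs and 23019 and 22244 TPM in ND SMs. None was called (0 by edgeR, DESeq2 and limma, with 4 and 1 at an unadjusted p under 0.05), the medians were -0.09 and -0.04, and C1qa was the most abundant with 5698 to 6392 TPM in HFD libraries. The 10 resident macrophage markers had log2 fold changes at or below 0 in both diets, with medians of -0.31 and -0.16, 0 called by the same tools and 9 and 3 at an unadjusted p under 0.05. On HFD, Lyve1 (-0.58), Folr2 (-0.44), F13a1 (-0.43), Cd163 (-0.39), Gas6 (-0.30), Cbr2 (-0.28) and Selenop (-0.24) missed only the fold. Their adjusted p ran from 0.00134 to 0.0434 (edgeR, Benjamini-Hochberg), where 3.02% of all genes were lower at an adjusted p under 0.05. Timd4, Mrc1 and Pf4 did not pass on adjusted p in HFD mice, nor did any of the 10 in ND mice. The sums of the 10 resident markers were 24012 and 22537 TPM in HFD ARMs against 28607 and 27383 TPM in HFD SMs, and 27682 and 26106 TPM in ND ARMs against 29643 and 28889 TPM in ND SMs, led by Selenop. These sums, like Ccl24 and, in HFD mice, Ccl6, were lower in ARMs, and their part in those results was not tested.

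Of the 9 lipid-associated macrophage markers, 6 rose in HFD ARMs and 4 in ND ARMs, with 0 lower, 8 and 7 at an unadjusted p under 0.05, and medians of 0.83 and 0.52. Of these markers, 9 in HFD mice and 8 in ND mice had a log2 fold change above 0, called or not. Their sums were 1179 and 1412 TPM in HFD ARMs against 899.8 and 909 TPM in HFD SMs, and 1268 and 1482 TPM in ND ARMs against 1030.04 and 1114 TPM in ND SMs, led by Lpl. The largest log2 fold changes in HFD mice were those of Gpnmb (1.31), Spp1 (1.16), Fabp5 (1.11) and Itgax (1.05), and the called genes in ND mice were Gpnmb (1.17), Spp1 (1.04), Itgax (0.67) and Fabp5 (0.61). DESeq2 called 5 genes of this list in HFD mice and 3 in ND mice, not Spp1 in the former nor Gpnmb in the latter. With limma without a filter, 0 were called in either diet. The filtered limma fits called neither Spp1 on HFD nor Itgax on ND. Without the filter on low counts, the HFD calls of Spp1, Fabp5 and Itgax were lost. Of the 9 monocyte markers, 8 were tested and 2 rose in each diet, Chil3 (0.85) and Cx3cr1 (0.80) in HFD mice and Vcan (0.72) and Cx3cr1 (0.59) in ND mice, with medians of 0.40 and -0.11. DESeq2 called 1 of them in HFD mice and 0 in ND mice. Without HFD ARM replicate 2 the calls of Itgax (0.88), Spp1 (0.58), Chil3 (0.62) and Cx3cr1 (0.62) were lost, and that of Chil3 also without HFD ARM replicate 1 (1.06) or HFD SM replicate 1 (0.59). Without ND ARM replicate 2 those of Gpnmb (0.84), Itgax (0.39), Fabp5 (0.52), Vcan (0.43) and Cx3cr1 (0.47) were lost. So were those of Itgax (0.58), Vcan (0.73) and Cx3cr1 (0.47) without ND SM replicate 1 and those of Fabp5 (0.54) and Vcan (0.71) without ND SM replicate 2. The monocyte sums, with Fn1 as the most abundant gene, were 193 and 243 TPM in HFD ARMs against 154 and 187 TPM in HFD SMs, and 403 and 468 TPM in ND ARMs against 385 and 373 TPM in ND SMs. Both sums were higher in ARMs along with Ccl3 and Ccl4, and their part was not tested. The ND monocyte sum was higher through Fn1, with 231 and 293 TPM in ND ARMs against 207 and 183 TPM in ND SMs. Without Fn1 it was not higher in ARMs. Of the 8 monocyte markers tested, 7 had a log2 fold change above 0 in HFD mice and 3 in ND mice.

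Markers of cells outside the gate also differed. Of 10 adipocyte markers, 9 rose in HFD ARMs and 7 in ND ARMs, with 0 lower, 10 and 8 at an unadjusted p under 0.05 and medians of 2.50 and 1.32. Their sums were 445 and 478 TPM in HFD ARMs against 106 and 110.1 TPM in HFD SMs, and 373 and 618 TPM in ND ARMs against 183 and 234 TPM in ND SMs. Car3 was the most abundant, with 244 and 258 TPM in HFD ARMs, and the largest log2 fold changes were those of Lep (2.98), Plin1 (2.87), Adipoq (2.85) and Cfd (2.74) in HFD mice and of Plin1 (1.88), Cfd (1.61), Cidec (1.5) and Adipoq (1.47) in ND mice. The ND calls of Plin1 and Adipoq were lost without ND ARM replicate 2, at 1.12 and 0.98, and that of Plin1 also without ND SM replicate 1 (1.71). No adipocyte marker was at 0 in all 4 libraries of a diet, and the same held for every other marker list among genes with deposited values. Trac, of the T and NK cell list, and Epx, of the eosinophil list, had none in either diet and could not be checked.

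Of 10 endothelial and lymphatic markers, 8 rose in HFD ARMs, led by Flt4 (2.19), Mmrn1 (1.74), Emcn (1.73) and Cldn5 (1.67), and 2 in ND ARMs, Mmrn1, with 31 and 17 counts in the ARM and 0 and 2 in the SM libraries, and Tek (1.32). The medians were 1.47 and 0.99, with 9 and 7 at an unadjusted p under 0.05 and 0 lower, and DESeq2 called 7 in HFD mice and 0 in ND mice. Their sums were 100.2 and 94.8 TPM in HFD ARMs against 41.1 and 29.2 TPM in HFD SMs, and 25.5 and 54.2 TPM in ND ARMs against 19.1 and 22.4 TPM in ND SMs. Cldn5 was the most abundant in both diets. The HFD calls of Flt4, Mmrn1 and Emcn were lost without HFD ARM replicate 1 (2.33, 1.45 and 1.75) and without HFD ARM replicate 2 (2.06, 1.99 and 1.72), and that of Mmrn1 also without HFD SM replicate 1 (1.3). The ND calls of Mmrn1 (3.53) and Tek (1.13) were lost without ND SM replicate 1, and that of Tek without ND ARM replicate 2 (1.07). Of 12 fibroblast, pericyte and mesothelial markers, 6 rose in HFD ARMs and 9 in ND ARMs, with 0 lower, 8 and 11 at an unadjusted p under 0.05 and medians of 0.65 and 1.43. Their sums were 375 and 429 TPM in HFD ARMs against 272 and 228 TPM in HFD SMs, and 432 and 628 TPM in ND ARMs against 149 and 206 TPM in ND SMs, led by Dcn. Among the called genes, the largest were Pdgfrb (1.42), Rgs5 (1.20), Col1a1 (0.71) and Dcn (0.69) in HFD mice and Msln (2.09), Upk3b (1.98), Col1a1 (1.90) and Dcn (1.59) in ND mice. The HFD calls of Col1a1 (0.38) and Dcn (0.58) were lost without HFD ARM replicate 2, and that of Dcn without HFD SM replicate 2 (0.57). Sums of these 3 lists were higher in ARMs of both diets, as were Ccl3, Ccl4 and Ccl11, and their part in those results was not tested.

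Markers of lymphoid cells, dendritic cells and granulocytes complete the lists. Of 11 T and NK cell markers, 3 were tested in HFD mice, where Cd4 rose (0.88, with 8.84 and 7.09 TPM in ARMs against 4.6 and 3.97 TPM in SMs, a call lost without HFD ARM replicate 1 at 0.71), and 2 in ND mice, where 0 were called by edgeR, DESeq2 or limma, none at an unadjusted p under 0.05. Their sums were 12.3 and 13.2 TPM in HFD ARMs against 10.3 and 9.24 TPM in HFD SMs and 9.9 and 11.2 TPM in ND ARMs against 8.82 and 11.2 TPM in ND SMs, with medians of 0.86 and 0.43. Cd4 made up most of the HFD ARM sums, and the others were mixed. Klrb1c, an NK cell marker, was at 0.86 in HFD mice and was not called, Cd8a was at -0.24 in HFD mice and 0.70 in ND mice, and Cd3e and Cd3g, both under 1 TPM on HFD, were not higher in HFD ARMs. Ccl5 is a product of T and NK cells too, and the part of such cells in its HFD result was not tested. Of 5 B cell markers, 3 were tested in each diet and 0 called by edgeR and DESeq2 (1 and 0 at an unadjusted p under 0.05, 1 by limma on log2(FPKM + 0.1) in HFD mice), with sums from 7.96 to 12.3 TPM in the 8 libraries, medians of -0.08 and 0.10 and Cd79b as the most abundant. Of 8 dendritic cell markers, 7 were tested and 0 called in either diet by edgeR, DESeq2 or limma (2 and 3 at an unadjusted p under 0.05, medians of -0.15 and -0.34). Their sums were 166 and 167 TPM in HFD ARMs against 223 and 232 TPM in HFD SMs, and 216 and 190.2 TPM in ND ARMs against 224 and 230.1 TPM in ND SMs, led by Cd209a. Cd209a, at -0.48 in HFD mice, missed only the fold (adjusted p = 0.00101, edgeR with Benjamini-Hochberg adjustment). Of 12 eosinophil, mast cell and neutrophil markers, 9 were tested. Ear2, the most abundant, rose in HFD ARMs (0.86) and S100a9 fell in ND ARMs (-1.43), a call lost without ND ARM replicate 1 at -0.87. The call of Ear2 was lost in one fit of all 8 libraries and with limma without a filter, and that of S100a9 with every limma fit. The sums of this list were 255 and 288 TPM in HFD ARMs against 178 and 183 TPM in HFD SMs, and 175 and 290 TPM in ND ARMs against 219 and 261 TPM in ND SMs, with medians of 0.09 and -0.10.

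**Figure D5:**
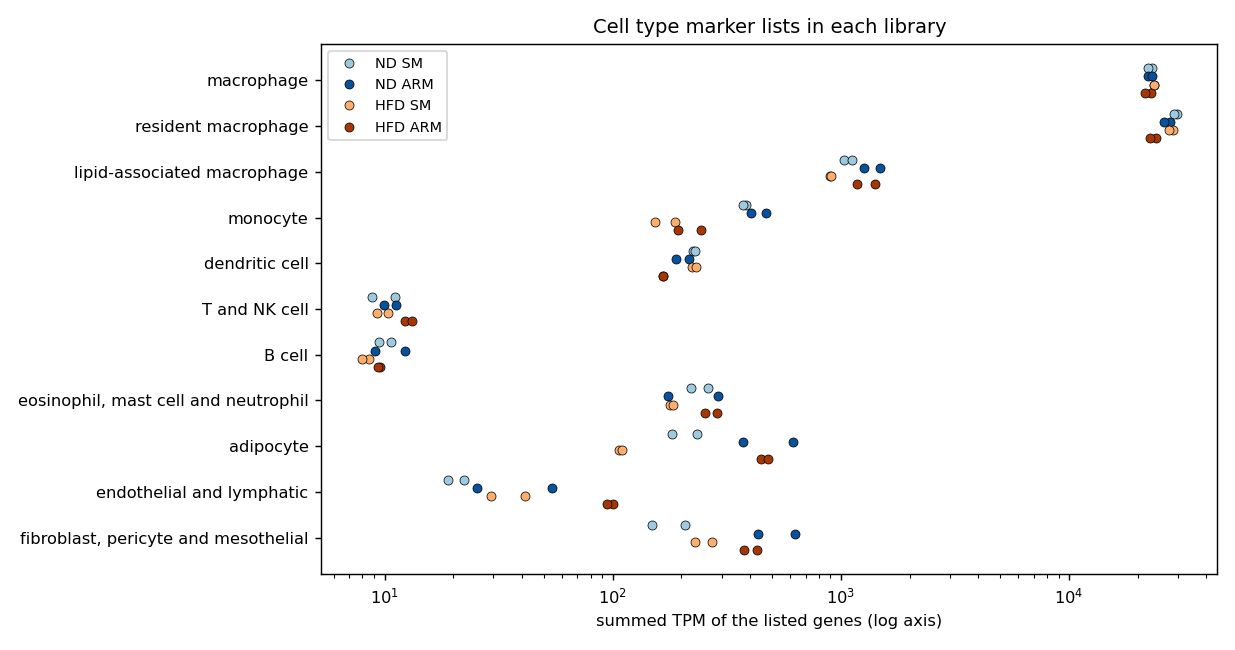
Summed TPM of each cell type marker list (x axis, log scale) in the 8 libraries, coloured by group. Macrophage sums lie between 21531 and 23684 TPM in all libraries, and the adipocyte sums of the ARM libraries lie to the right of those of the SM libraries.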

How the data were processed

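Counts, FPKM and TPM per gene were taken from 2 deposited tables, one per diet, for 8 libraries. The estimated counts, as deposited by the authors, were not normalised, and some are not whole numbers. FPKM values were computed by the authors per transcript length and library size, and TPM values, also deposited by the authors, sum to the same total in each library. The submitters' processing notes name mm10, and the aligner and counting program were not given in the sources used here. Counts were rounded to whole numbers, filtered with filterByExpr, scaled by TMM and fitted in edgeR 4.0.16 (R 4.3.3) within each diet, with quasi-likelihood tests and Benjamini-Hochberg adjustment. The difference between diets was the interaction term of one fit of all 8 libraries. DESeq2 1.42.0 and limma 3.58.1 were alternatives, as were library totals, upper-quartile factors, other filters, a replicate block and leaving out each library. The steps were tested on simulated data. Lists and figures used Python 3.11.15, pandas 2.3.3, numpy 2.4.6 and matplotlib 3.10.9, and positions came from GENCODE.

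Named genes were the 10 ligands, other CC ligands and CC or atypical receptors that passed the filter, and of each further list the called genes (at most the 4 largest absolute log2 fold changes per contrast) and the most abundant by mean TPM. To these were added, for each ligand, up to 3 genes of mean TPM at least 10 with the highest correlation. Genes outside this rule were named after their values were seen. The members and lists were chosen with earlier results of these data known, and the motifs and the promoters printed were chosen after the values were seen.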

Additional observations from a re-analysis of the deposited data

Results flagged for a closer look

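Lep, the adipocyte hormone leptin in the adipocyte marker list, differed between diets in its excess in ARMs. It had 13.9 and 16.5 TPM in HFD ARMs against 1.72 and 2.1 TPM in HFD SMs, and 3.46 and 4.52 TPM in ND ARMs against 1.36 and 2.1 TPM in ND SMs. The interaction was 1.80 on the log2 scale (adjusted p = 0.038, edgeR with Benjamini-Hochberg adjustment). It kept a value from 1.48 to 2.10 with single libraries left out, but its adjusted p was above 0.05 in 6 of 8 such fits, up to 0.242 without ND SM replicate 2 (edgeR, Benjamini-Hochberg). Lep was picked by this value from all genes of the lists, under a rule that was changed after its first result, the opposite signs of Ccr1 in the diets, had been seen. The cause was not tested.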

How the results depend on the processing

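Of the ligand results, 151 alternatives in HFD mice and 154 in ND mice kept direction and side of the threshold, 7 and 2 lost a call, and 2 and 1 gained one. Most ligands were not called in the main fits, and for them a kept side means only that they stayed uncalled. The setting with any fold reuses the main fit and cannot lose a call. The lost calls in HFD mice were those of Ccl3, Ccl5 and Ccl12. With limma on log2(FPKM + 1) without a filter, ligands called higher in ARMs were 2 in HFD mice and 0 in ND mice. At an adjusted p under 0.05 with any fold, those called lower were 2 and 1. Over all genes, edgeR called 634 in HFD mice. DESeq2 called 383, no filter 181, limma on log2(FPKM + 1) 331, on log2(FPKM + 0.1) 405 and unfiltered 35, the threshold of the study's methods 1017, any fold 1274, and leaving out single libraries 214 to 637. In ND mice, against 458, DESeq2 called 267, no filter 627, limma 214, 219 and 0 in the same order, the methods threshold 888, and leaving out libraries 188 to 661. The cause was not tested. A library left alone in its group was assumed to vary like the others.

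All-gene and per-ligand differences between diets, list-gene results and the Ccl3 and Ccl4 sum were added after seeing the data. Against 22 genes whose change differed between diets, DESeq2 called 93, no filter 41, and leaving out single libraries 0 to 102, and among the ligands DESeq2 called 1. With the replicate number as a block, 786 genes were called in ND mice, and 187 genes and 1 ligand differed between diets. The difference between diets for Ccl2 was then -0.00023. This block pairs ARM and SM libraries by number, and the labels do not say whether such libraries came from the same mice. The r of replicate differences was 0.061 in HFD and 0.355 in ND mice. Within each diet, the block put Ccl2 past the adjusted p but not the fold. Its log2 fold change was 0.27 in HFD mice (adjusted p = 0.0248) and 0.25 in ND mice (adjusted p = 0.024), by edgeR with Benjamini-Hochberg adjustment.

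The signs that turned belonged to values that were not called. Without HFD ARM replicate 1, Ccl8 was at 0.0873 in HFD mice (range -0.20 to 0.0873). In ND mice Ccl8 was at 0.13 without ND ARM replicate 2 and 0.24 without ND SM replicate 1 (range -0.78 to 0.24), and Ccl9 at 0.025 and 0.0257 (range -0.15 to 0.0257). With library totals the difference between diets was 0.0025 for Ccl6 and 0.021 for Ccl7. With single libraries left out, differences that turned sign ranged from -0.15 to 0.17 for Ccl2, -0.22 to 0.17 for Ccl6, -0.23 to 0.26 for Ccl7, -0.28 to 0.74 for Ccl8 and -0.13 to 0.0725 for Ccl9. Ccl5 had the fewest counts of the ligands, 29 to 44 in ND libraries, which limits the precision of its values.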
